A study of Mus musculus with 32 samples.

Results

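Gene desert peaks are the ATAC-seq peaks of orbitofrontal cortex (OFC) astrocytes that the study's own annotation places far from the nearest gene. They were chosen by the annotation that accompanies each deposited peak list. A peak was taken when it was on chromosomes 1 to 19, was annotated as intergenic, was listed at over 500 kb from the nearest transcription start site (TSS) and was narrower than 500 kb. Over the 6 lists of the study, 1876 peaks met these limits, of 13794 peaks on chromosomes 1 to 19 and 16174 peaks in all.

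ATAC-seq reads open chromatin through a transposase that inserts sequencing adapters where DNA is accessible. The 32 samples came from male C57BL/6J mice, 8 weeks old at social defeat in the study's methods, whose OFC astrocytes were isolated with magnetic beads against the astrocyte surface antigen ACSA-2 (MACs). Each sample pooled the cells of 3 mice, and the virus of every group was an AAV6 driven by the GFAP promoter and injected into both sides of the OFC, so that expression depended on the cells in which that promoter is active. In the knockdown experiment, mice carried either a microRNA virus against Zbtb7a (Zbt-KD) or its control, a GFP virus with a scrambled microRNA, and were either controls or underwent 10 days of chronic social defeat stress (CSDS). Its 4 groups, of 5 samples each, were GFP control and Zbt-KD control without stress, and GFP CSDS and Zbt-KD CSDS with it. In the overexpression experiment, mice carried a GFP virus without a microRNA (GFP SSDS) or a ZBTB7A virus (ZBT-OE SSDS), with 6 samples in each group. By the study's methods both were exposed to subthreshold social defeat stress (SSDS) for 1 day, while the labels give the virus only. The files used here hold 1 peak list per group, with no value per sample and no read number. The spread between samples and the depth are therefore not known from them, and no difference between lists was tested against replicate error.

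A gene desert is a long stretch of a chromosome without protein-coding genes. Such stretches are poor in G and C, rich in interspersed repeats, mostly late in replication and often held at the nuclear lamina, and some of them carry enhancers that act on a gene far away, often a developmental or neuronal gene. ZBTB7A is a zinc finger transcription factor of the BTB family that binds GC-rich DNA with GACCC among its preferred letters and recruits corepressors. Peaks in a gene desert can report such distant elements, broad differences in accessibility, or sequence that reads map to unevenly.

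The name gene desert held for the authors' annotation and for protein-coding genes, and did not hold for every annotated transcript. The deposited distance of a peak was obtained again to within 1 bp from the start sites of curated RefSeq transcripts for 69.1% to 75.9% of the gene desert peaks of a list, so the authors' gene set lies close to that one. Measured to a coding start site in GENCODE, 85.5% to 92.6% of the peaks of a list lay over 500 kb away, at a median of 678 to 839 kb, and between 1 and 3 peaks of a list overlapped a protein-coding gene. Measured to the start of any GENCODE transcript, which include predicted noncoding genes and pseudogenes, only 0.658% to 2.31% lay over 500 kb away, at a median of 51.8 to 61.9 kb. The share of peaks that overlapped no GENCODE gene of any kind was highest in the GFP control list, at 85.2%, and lowest in the ZBT-OE SSDS list, at 44.8%, which hold the narrowest and the widest peaks.

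The peak lists could not be used to check the cell type. Of 40 marker genes, 10 each for astrocytes, neurons, oligodendrocytes and microglia, a peak overlapped the body of 0 in 5 lists and of 1 in the ZBT-OE SSDS list, the astrocyte gene Atp1b2. In pooled cells, fewer cells of a type and less accessible DNA per cell cannot be told apart.

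To show the DNA that these peaks are made of, the central 300 bases of 5 loci are given on the plus strand of mm10. The first 4 are the loci found in all 6 lists with the highest rank of fold enrichment, each taken from the middle of the stretch that all 6 lists cover and named by its listed nearest gene. The fifth is a locus nearest Pcmtd1 that was found in the GFP control, Zbt-KD control and GFP SSDS lists only, and it was added after its values were seen. Capitals mark the letters GACCC or their reverse complement GGGTC. The Pla2g4a window is chr1:148356848-148357147, with 48.3% GC and 0% of bases soft-masked as repeats.
Pla2g4a: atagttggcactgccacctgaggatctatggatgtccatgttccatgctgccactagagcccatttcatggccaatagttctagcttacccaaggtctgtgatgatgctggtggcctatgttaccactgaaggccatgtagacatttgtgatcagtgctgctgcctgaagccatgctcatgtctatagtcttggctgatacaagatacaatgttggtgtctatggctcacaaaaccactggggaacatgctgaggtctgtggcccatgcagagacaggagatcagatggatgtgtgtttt
The Igfbp3 window is chr11:7833690-7833989, with 25.0% GC and 34.7% soft-masked bases.
Igfbp3: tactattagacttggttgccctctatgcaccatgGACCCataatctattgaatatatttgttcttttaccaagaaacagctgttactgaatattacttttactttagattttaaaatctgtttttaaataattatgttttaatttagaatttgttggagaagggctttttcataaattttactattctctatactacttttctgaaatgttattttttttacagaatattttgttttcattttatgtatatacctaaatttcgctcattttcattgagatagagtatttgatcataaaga
The Gm36595 window is chr10:56932277-56932576, with 33.7% GC and 38.7% soft-masked bases.
Gm36595: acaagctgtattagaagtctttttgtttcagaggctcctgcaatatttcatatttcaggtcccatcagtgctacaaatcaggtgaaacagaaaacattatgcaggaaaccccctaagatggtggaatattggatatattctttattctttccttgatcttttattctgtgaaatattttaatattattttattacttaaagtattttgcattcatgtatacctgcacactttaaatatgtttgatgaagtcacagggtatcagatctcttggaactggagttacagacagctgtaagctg
The Snord14c window is chr10:46779933-46780232, with 35.0% GC and 16.7% soft-masked bases.
Snord14c: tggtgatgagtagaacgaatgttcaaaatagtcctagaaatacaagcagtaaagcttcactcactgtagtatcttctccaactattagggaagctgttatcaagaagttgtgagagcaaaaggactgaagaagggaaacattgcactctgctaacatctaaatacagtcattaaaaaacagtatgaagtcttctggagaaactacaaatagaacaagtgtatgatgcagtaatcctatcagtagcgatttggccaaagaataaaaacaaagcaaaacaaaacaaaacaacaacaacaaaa
The Pcmtd1 window is chr1:8076089-8076388, with 32.7% GC and 29.7% soft-masked bases.
Pcmtd1: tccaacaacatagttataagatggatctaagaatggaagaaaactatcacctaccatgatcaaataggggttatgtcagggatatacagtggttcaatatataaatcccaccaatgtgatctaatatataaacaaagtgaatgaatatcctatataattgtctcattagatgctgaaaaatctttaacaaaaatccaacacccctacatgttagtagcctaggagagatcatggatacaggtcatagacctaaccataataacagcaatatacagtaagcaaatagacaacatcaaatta
The searched letters occurred once, in the Igfbp3 window, and 0 times in the other 4 windows. Of the 270 overlapping 31-base words in each window, 8 in the Gm36595 window and 11 in the Snord14c window were found more than once in the genome, against 0 in the other 3, so that reads from most of these bases can be placed at 1 position.

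The lists differed widely in the number of gene desert peaks and little in the DNA that these covered. There were 784 in the GFP control list, 477 in GFP CSDS, 191 in Zbt-KD control, 176 in Zbt-KD CSDS, 152 in GFP SSDS and 96 in ZBT-OE SSDS. They covered 13.7, 15.1, 15.9, 16.9, 17.95 and 18.1 Mb in the same order, so the list with the most peaks covered the least DNA. Median peak width, again in that order, was 1892.5, 3694, 24216, 36098, 34887 and 123836 bp.

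The finest detail of the lists differed as their numbers did, for a reason not given in the sources used here. The narrowest peak and the smallest gap of a list were nearly equal, at 687 and 690 bp in GFP control and at 20269 and 20304 bp in ZBT-OE SSDS, with the other lists in between. When peaks closer than 20.3 kb were joined and peaks narrower than 20.3 kb were dropped in every list, the order changed, with the fewest in GFP control and the most in ZBT-OE SSDS. A joined peak was kept as a gene desert peak only if all its parts were and it was narrower than 500 kb. Other joined peaks counted among the autosomal peaks only. This scale is that of the ZBT-OE SSDS list, which it left unchanged, so the new order depends in part on that choice. There were 58 gene desert peaks in GFP control, 81 in GFP CSDS, 80 in Zbt-KD control, 79 in Zbt-KD CSDS, 85 in GFP SSDS and 96 in ZBT-OE SSDS. In the lists as deposited, the bulk of the length lay in wide peaks. Peaks of 100 kb or more numbered 33, 41, 45, 49, 51 and 54 in the 6 lists, from GFP control to ZBT-OE SSDS, and held 70.8% to 88.8% of the length. The 678 GFP control peaks narrower than 10 kb held 1.59 Mb, and ZBT-OE SSDS had 0 peaks of that width.

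**Figure D1:**
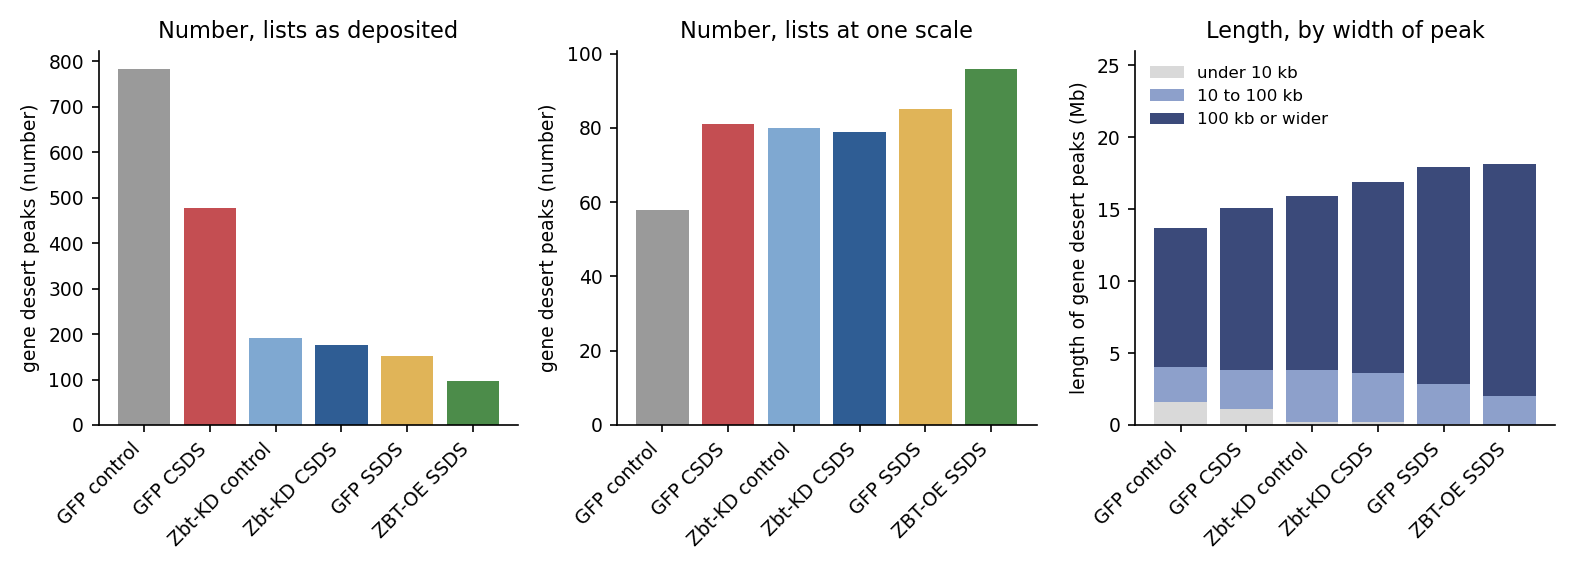
Number of gene desert peaks per list as deposited (left) and after all lists were joined and filtered at a common scale of 20.3 kb (middle), and their summed length in Mb split by the width of the peak (right). The number fell from 784 to 96 across the deposited lists and lay between 58 and 96 at the common scale, while the length stayed between 13.7 and 18.1 Mb.

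Gene desert peaks were 14.5% of all autosomal peaks in GFP control (95% Wilson interval 13.6% to 15.4%), 14.0% in GFP CSDS (12.9% to 15.2%), 14.7% in Zbt-KD control (12.9% to 16.7%), 14.9% in Zbt-KD CSDS (13.0% to 17.0%), 11.8% in GFP SSDS (10.2% to 13.7%) and 8.01% in ZBT-OE SSDS (6.60% to 9.68%). These intervals cover counting error over peaks only. The 4 lists of the knockdown experiment overlapped one another, and the ZBT-OE SSDS share lay below that of GFP SSDS with intervals that did not overlap. At the common scale their intervals overlapped, at 10.0% in GFP SSDS (8.16% to 12.2%) and 8.01% in ZBT-OE SSDS (6.60% to 9.68%), against 9.39% to 11.9% in the knockdown experiment.

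The length of gene desert under peaks was measured a second way, which counts bases and not peaks. Bases over 500 kb from the start of any GENCODE transcript amounted to 49.8 Mb in 27 intervals, but 97.1% of them were unsequenced bases at assembly gaps, and a list covered only 0.0866 to 0.326 Mb of them. Bases over 500 kb from a curated RefSeq start site, a set taken up after the data were seen, held 173 Mb of sequenced DNA. Of it, peaks of any width covered 7.87% in GFP control, 9.72% in GFP CSDS, 10.8% in Zbt-KD control, 11.4% in Zbt-KD CSDS, 12.7% in GFP SSDS and 11.7% in ZBT-OE SSDS. In all 6 lists the covered share was higher than in the rest of the sequenced autosomes, where it ran from 5.75% in GFP control through 6.73%, 6.78%, 6.90% and 8.67% to 9.11% in ZBT-OE SSDS. The ZBT-OE SSDS list covered more of the rest of the genome than GFP SSDS and less of the gene desert. Peaks of at least 1 list covered 27.2 Mb of this space, and 10.7 Mb, or 39.2% of the covered bases, were covered in all 6 lists. For bases over 500 kb from a coding start site that share was 39.9%. It was not computed over the autosomes.

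Fold enrichment, the peak caller's ratio of signal to background, has no common scale between lists and is read within each. Its median over gene desert peaks was 1.68, 1.66, 1.73, 1.77, 1.80 and 2.13 from GFP control to ZBT-OE SSDS, beside 1.68, 1.68, 1.79, 1.81, 1.92 and 2.14 over all autosomal peaks. The highest value of a list lay between 4.73 in Zbt-KD CSDS and 5.83 in GFP SSDS. A fold of 2 or more was reached by 7.53% of gene desert peaks in GFP control and by 56.3% in ZBT-OE SSDS, against 10.3% and 57.7% of all autosomal peaks of those lists.

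At the distance limit, the GFP control peak just inside was nearest Tyrp1, at 500.1 kb with a fold of 1.66, and the peak just outside was nearest Rgmb, at 499.98 kb with a fold of 1.93. At the width limit, the widest GFP control peak inside was the Igfbp3 peak of 491163 bp, and the narrowest outside was a peak of 518279 bp nearest 9530002B09Rik. Between 4 and 11 intergenic peaks of a list lay beyond the distance limit but were 500 kb or wider, and are left out here.

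The farthest gene desert peaks lay about 2 Mb from a start site with folds of 1.57 to 1.71. In GFP control and GFP SSDS the farthest peak was nearest Rag2, which encodes a subunit of the recombinase that assembles antigen receptor genes, at 2002 and 2054 kb with folds of 1.63 and 1.57. In Zbt-KD control, Zbt-KD CSDS and ZBT-OE SSDS it was nearest Olfm4, which encodes a secreted olfactomedin glycoprotein, at 2028, 1875 and 1961 kb with folds of 1.65, 1.71 and 1.66. In GFP CSDS it was nearest Dsel, which encodes an epimerase of dermatan sulfate, at 1906 kb with a fold of 1.57. The Rag2 and Olfm4 peaks were found in 2 or 3 of the 6 lists and the Dsel peak in 5. Peaks over 1 Mb from a start site made up 22.0% of gene desert peaks in GFP CSDS, 25.6% in GFP control and 29.2% to 34.9% in the other 4 lists.

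The peaks were not spread over the chromosomes by length. The share of all autosomal peaks on each chromosome was not computed, so this spread is not read as particular to them. Chromosome 1, with 7.94% of autosomal length, held 97 of 444 gene desert loci and between 13.1% and 19.9% of the peaks of a list. Chromosome 3, with 6.50% of the length, held 7.29% to 15.2% of the peaks. Chromosomes 17 and 19 held at most 1.70% and 1.14%, and ZBT-OE SSDS had 0 gene desert peaks on chromosome 17. The number of peaks on a chromosome and the length they covered are given for 3 chromosomes. Chromosome 10 had 28 gene desert peaks in GFP control and 5 in GFP CSDS, over 1.48 and 1.57 Mb. On chromosome 9 there were 5 in GFP control and 28 in GFP CSDS, over 0.337 and 0.560 Mb. Chromosome 16 had 58 and 51 gene desert peaks in these lists, over 0.163 and 1.00 Mb.

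Joining all overlapping gene desert peaks of the 6 lists gave 444 loci over 28.9 Mb. A locus counted as found in a list when any peak of that list overlapped it by at least 1 bp. Of the loci, 124 were found in all 6 lists and 132 in 1 list, with 61, 47, 30 and 50 found in 2, 3, 4 and 5 lists. The same counts over loci of all autosomal peaks were not computed, so this sharing is not read as particular to gene deserts. The shared loci were the wide ones, with 20.2 Mb and a median width of 87592.5 bp, against 1.24 Mb and 2938.5 bp for loci found in 1 list. They also ranked higher by fold within their lists, at a median percentile of 75.7 against 34.6. The rank in a list was that of the strongest peak overlapping the locus, so a wide locus that meets more peaks can rank higher by this measure alone. These ranks include overlapping peaks that did not meet the limits, as at the loci nearest Tle1 and Tmtc2. Among the loci of 1 list, 57 belonged to GFP control, 33 to GFP CSDS, 20 to GFP SSDS, 10 to Zbt-KD CSDS, and 6 each to Zbt-KD control and ZBT-OE SSDS. A wide locus has more bases for a peak of another list to meet, so width, sharing and rank are not independent measures.

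**Figure D2:**
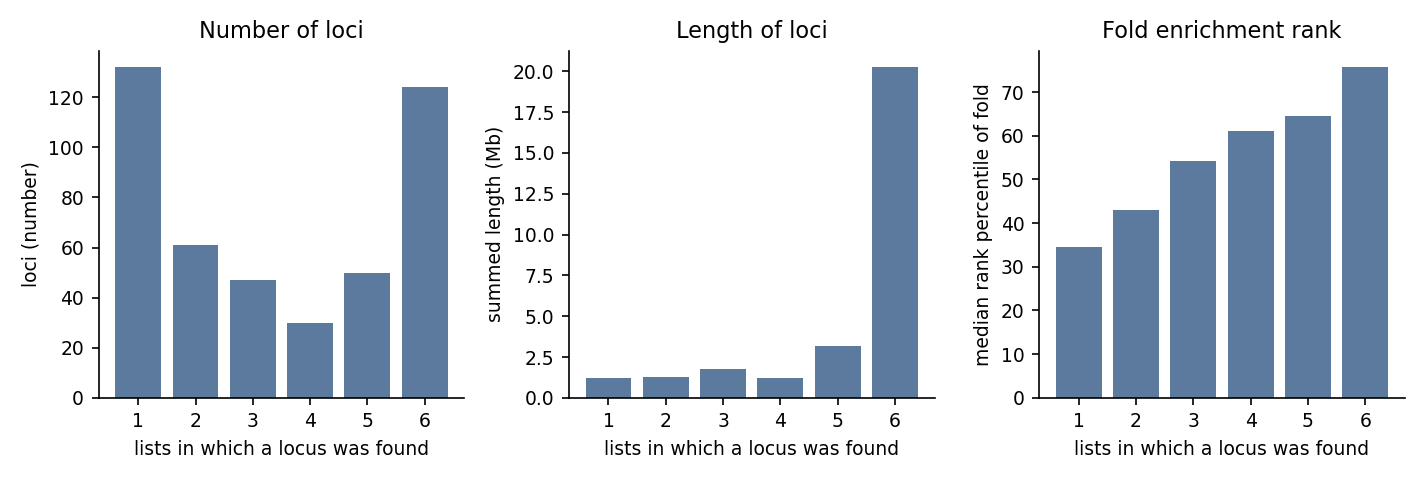
Number of gene desert loci (left), their summed length in Mb (middle) and the median rank percentile of the fold enrichment of their strongest overlapping peak (right), by the number of lists in which a locus was found. The 124 loci found in all 6 lists held 20.2 of 28.9 Mb and had the highest median percentile, 75.7.

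The 8 highest ranked loci found in all 6 lists were blocks of 337 to 492 kb. The first was nearest Pla2g4a, which encodes the cytosolic phospholipase A2 that releases arachidonic acid, at chr1:148131291-148546674. Its fold was 4.90 in GFP control, 4.87 in GFP CSDS, 4.82 in Zbt-KD control, 4.73 in Zbt-KD CSDS, 5.83 in GFP SSDS and 5.62 in ZBT-OE SSDS, at percentiles between 95.9 and 99.3 of each list. The block was 1565 kb from the listed start site and overlapped 3 predicted GENCODE genes and no protein-coding gene.

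The second was nearest Igfbp3, which encodes a binding protein of insulin-like growth factors, at chr11:7587956-8080417. Its fold was 4.04 in GFP control, 4.38 in GFP CSDS, 3.68 in Zbt-KD control, 4.30 in Zbt-KD CSDS, 5.23 in GFP SSDS and 5.00 in ZBT-OE SSDS. Each list had a single peak there, and over the 6 lists its start differed by at most 442 bp and its end by at most 1136 bp. All 6 lists thus placed both edges of a block of 492 kb at nearly the same bases.

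The same held for the loci nearest Gm36595, Snord14c and Frk, all on chromosome 10. The block nearest the noncoding RNA gene Gm36595, at chr10:56721926-57144171, had folds of 3.28, 3.78, 3.22, 3.38, 4.66 and 5.25 from GFP control to ZBT-OE SSDS. That nearest the small nucleolar RNA gene Snord14c, at chr10:46586056-46974514, had 2.94, 3.70, 2.98, 3.32, 4.92 and 5.07. That nearest Frk, which encodes a kinase related to Src, at chr10:35310171-35678263, had 3.02, 3.53, 3.11, 3.16, 5.13 and 4.59. Their starts differed between lists by at most 1276 bp and their ends by at most 2520 bp. In all 3 the SSDS lists had higher folds than the lists of the knockdown experiment, and since folds are scaled within each list this order is not a comparison of accessibility.

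The other 3 named loci were nearest A330008L17Rik, Snx16 and Api5. A330008L17Rik is a noncoding RNA gene, and its locus at chr8:100235015-100620533 ranked between the 89.1 and 97.3 percentiles. The locus nearest Snx16, which encodes a sorting nexin of the endosome, at chr3:10810143-11146653, ranked between 90.7 and 97.3. The locus nearest Api5, an inhibitor of apoptosis, at chr2:94878080-95318379, ranked between 87.0 and 98.6 and overlapped 0 GENCODE genes. Of all 124 shared loci, 58 had exactly 1 peak in every list, and 8 of those had both edges within 5 kb over the 6 lists. The median range of the starts of those 58 was 124335 bp and that of the ends 268853 bp. Of the 58, 13 were nearest Tle1, 11 nearest Tmtc2 and 8 nearest 2410018L13Rik, narrow loci that lie inside a wide peak of other lists. The edges of the remaining shared loci were not compared.

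**Figure D3:**
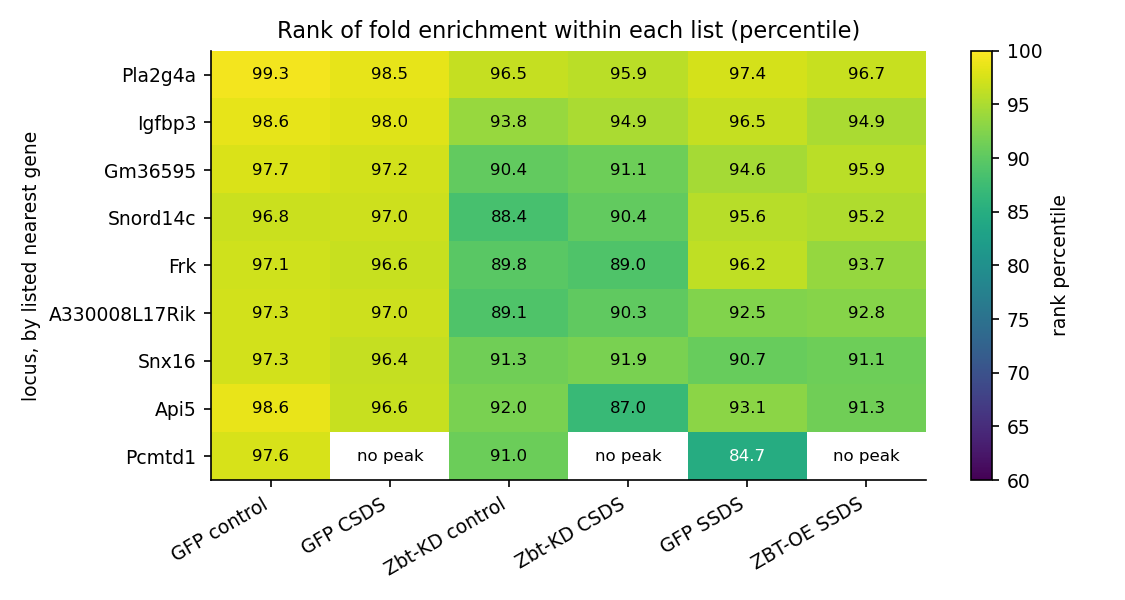
Rank percentile of fold enrichment within each list for the 8 highest ranked loci found in all 6 lists and for the strongest peak nearest Pcmtd1, labelled by listed nearest gene. The 8 loci lie between 87.0 and 99.3 in every list, and the Pcmtd1 stretch has no peak in GFP CSDS, Zbt-KD CSDS and ZBT-OE SSDS.

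The stretch of chromosome 1 nearest Pcmtd1 differed plainly between lists. Pcmtd1 encodes a protein with an isoaspartyl methyltransferase domain, and it was the nearest gene of 22 loci, the most of any gene. The loci span 675 kb, at chr1:7484265-8159401. The GFP control, Zbt-KD control and GFP SSDS lists covered 309, 411 and 189 kb of the stretch, and there was no peak of any kind in it in GFP CSDS, Zbt-KD CSDS and ZBT-OE SSDS. The strongest peak was at chr1:7995479-8156188 in GFP control, with a fold of 3.27 at the 97.6 percentile. It was at chr1:7996288-8159401 in Zbt-KD control, with a fold of 3.28 at the 91.0 percentile, and at chr1:7995916-8159401 in GFP SSDS, with a fold of 3.201 at the 84.7 percentile. The 3 peaks had nearly the same extent, 161 to 163 kb. In the 3 lists without it, the next peak began 2732 kb beyond the end of the stretch, against 529 to 533 kb in the lists that had it. The 2 lists of unstressed mice had the block and the 2 CSDS lists did not, whereas of the 2 SSDS lists, both from stressed mice, 1 had it. Whether a difference in a single sample or pool made it cannot be told from 1 list per group.

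Loci were also sorted by the condition of the lists that held them. For comparison, all autosomal peaks of the 6 lists were joined where they overlapped into 2176 loci. The 444 loci join gene desert peaks only, so 1 wide peak outside the limits can cover several of them. The autosomal loci were wider, with a median of 27194.5 against 9313.5 bp. For both reasons the shares describe the 2 sets and do not compare like with like. Both control lists and neither CSDS list held 28 gene desert loci over 0.721 Mb, 6.31% of the 444, beside 1.70% of all autosomal loci. Of the 28, 11 were also found in GFP SSDS and 8 in ZBT-OE SSDS, both lists from stressed mice. By nearest gene, 9 were nearest the noncoding RNA gene Gm20268, 5 nearest 1700030C10Rik, 3 nearest 2610316D01Rik and 2 nearest Pcmtd1. In Zbt-KD control all 9 had the same fold, 2.66, and all 5 had 3.70, so such neighbouring loci are not independent counts. The 2 Pcmtd1 loci made up 395 kb of that length. The 9 Gm20268 loci summed to 17.96 kb, and peaks of any list covered between 647 and 699 kb of the 712 kb of its loci, so the CSDS lists lacked little of that stretch. Both CSDS lists and neither control list held 12 loci over 0.242 Mb, near 11 genes (2.70%, beside 1.38%), of which 4 were also found in GFP SSDS and 2 in ZBT-OE SSDS. Of the 12, 1 was nearest Mmp16, which encodes a matrix metalloproteinase, and was 6.75 kb wide. The highest folds were at a locus nearest the noncoding RNA gene Rprl2, at chr3:23098793-23112399, with 5.56 in GFP CSDS and 5.48 in Zbt-KD CSDS. These exceed the highest fold of any gene desert peak of those lists, 4.87 and 4.73, so they belong to overlapping peaks outside the limits. The locus was also found in GFP SSDS, with a fold of 1.58.

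By virus, both GFP lists of the knockdown experiment and neither Zbt-KD list held 8 loci over 0.0347 Mb (1.80%, beside 2.99% of all autosomal loci), of which 4 were also found in GFP SSDS and 3 in ZBT-OE SSDS. By nearest gene, 3 were nearest Dcc, which encodes the netrin receptor, and 1 each nearest Rgs18, Lrfn5, Basp1, Snhg14 and Kcnd2. Both Zbt-KD lists and neither GFP list of that experiment held 13 loci over 1.23 Mb (2.93%, beside 1.24%). The widest was nearest Gm15679, a locus of 436 kb of which Zbt-KD control covered 18.8 kb, Zbt-KD CSDS 65.3 kb, GFP SSDS 262 kb and ZBT-OE SSDS all 436 kb. Of the 13 loci, 7 were also found in GFP SSDS and 3 in ZBT-OE SSDS, so loci set apart by the knockdown were also found in mice with a GFP virus. All 4 lists of the knockdown experiment and neither SSDS list shared 2 loci (0.450%, beside 0.460%), and both SSDS lists and no list of the knockdown experiment shared 4 (0.901%, beside 5.01%), of which 1 was nearest Isl1, a LIM homeobox transcription factor.

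The comparison of GFP CSDS with GFP control asks which gene desert peaks come and go with 10 days of stress under a control virus. Of the 784 GFP control peaks, 295 (37.6%, interval 34.3% to 41.1%) had no overlap in GFP CSDS, beside 29.2% of all autosomal peaks of that list. At the common scale it was 12 of 58 (20.7%, 12.3% to 32.8%), beside 11.5%. Of the 477 GFP CSDS peaks, 245 (51.4%, 46.9% to 55.8%) had none in GFP control, beside 48.2%. Counted in bases, 10.98% of the GFP control bases in the RefSeq gene desert were not covered in GFP CSDS and 28.0% of the GFP CSDS bases were not covered in GFP control, beside 6.67% and 20.5% over the autosomes. The direction with more new bases was that of GFP CSDS, in the gene desert as over the autosomes. Absent peaks were narrow, with a median of 1441 bp for GFP control peaks against 2627 bp for those found.

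The GFP control peaks with the highest fold that GFP CSDS lacked were the Pcmtd1 block described above, a peak of 93365 bp nearest Cdh6, which encodes a cadherin, at chr15:14919704-15013068 with a fold of 2.06, and a peak of 4599 bp nearest B3galt2, which encodes a galactosyltransferase, with a fold of 1.98. The Cdh6 peak was found in all 4 other lists, and a GFP CSDS peak lay 21.7 kb away. The GFP CSDS peaks with the highest fold that GFP control lacked were nearest 6430553K19Rik, B3galt2 and 4930553E22Rik. The first, at chr16:47305101-47378673 with a fold of 2.47, was found in all 4 other lists. The B3galt2 peak, at chr1:142359668-142496889 with a fold of 2.20 and a width of 137222 bp, was found in 3, Zbt-KD control, Zbt-KD CSDS and ZBT-OE SSDS. Of these 6 peaks, all were found in at least 2 other lists, of either stress condition.

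The comparison of Zbt-KD CSDS with Zbt-KD control asks the same of stress under the knockdown. Of the 191 Zbt-KD control peaks, 39 (20.4%, 15.3% to 26.7%) were absent from Zbt-KD CSDS, beside 24.3% of all autosomal peaks, and of the 176 Zbt-KD CSDS peaks 57 (32.4%, 25.9% to 39.6%) were absent from Zbt-KD control, beside 27.6%. Both backgrounds lie within these intervals. Of the gene desert bases, 16.9% of those of Zbt-KD control and 21.1% of those of Zbt-KD CSDS were not covered in the other list, beside 11.3% and 13.2% over the autosomes. The peaks with the highest fold that Zbt-KD CSDS lacked were a pair nearest Pcmtd1, with folds of 3.28 and 1.98, and a peak of 162019 bp nearest 4930404A05Rik with a fold of 1.90. Those that Zbt-KD control lacked were nearest Rag2, with a fold of 2.08, and nearest Sema6d and A330008L17Rik, each with 1.97. Sema6d encodes a semaphorin, a guidance cue for axons, and its peak, at chr2:123515379-123521953, was also found in GFP control, GFP CSDS and GFP SSDS.

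The comparison of Zbt-KD control with GFP control asks about the knockdown in unstressed mice. Of the GFP control peaks, 190 (24.2%, 21.4% to 27.4%) were absent from Zbt-KD control, beside 28.8% of all autosomal peaks. At the common scale that share was not below its background, at 6 of 58 (10.3%, 4.83% to 20.8%) beside 9.55%. Of the Zbt-KD control peaks, 73 (38.2%, 31.6% to 45.3%) were absent from GFP control, beside 31% (404 of 1302), and at the common scale 28 of 80 (35.0%, 25.5% to 45.9%) beside 22.6%. In bases the difference was larger in that direction. Of the Zbt-KD control gene desert bases, 31.9% were not covered in GFP control against 6.41% the other way, beside 21.6% and 6.24% over the autosomes. In the upper 50% of each list by fold, the order by peaks turned. There 84.5% of Zbt-KD control peaks were found in GFP control and 61.5% the other way. As deposited, these were 61.8% and 75.8%. The same shares over all autosomal peaks in the upper 50% were not computed, so the turn is not read as particular to gene deserts. The strongest Zbt-KD control peaks without a GFP control peak were nearest 6430553K19Rik, with a fold of 2.10, Cntn5, with 1.92, and 4930404A05Rik, with 1.90. Cntn5 encodes contactin 5, a neuronal adhesion molecule, and its peak of 155569 bp, at chr9:11633832-11789400, was found in all 4 remaining lists and lay 7.02 kb from a GFP control peak. The strongest GFP control peaks absent from Zbt-KD control were nearest Rgs18, a regulator of G protein signalling, at chr1:145528499-145534699 with a fold of 2.12, and a pair nearest Rag2 with folds of 1.99 and 1.86. The Rgs18 peak was found in 1 further list, GFP CSDS.

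Under stress, 126 of the GFP CSDS peaks (26.4%, 22.7% to 30.5%) were absent from Zbt-KD CSDS, beside 38.3% of all autosomal peaks, and 46 of the Zbt-KD CSDS peaks (26.1%, 20.2% to 33.1%) were absent from GFP CSDS, beside 22.0%. The first share lay below its background by more than counting error and the background of the second lay within its interval, and both readings changed at the common scale. There, 12 of 81 GFP CSDS peaks (14.8%, 8.68% to 24.1%) were absent beside 16.2%, and 17 of 79 Zbt-KD CSDS peaks (21.5%, 13.89% to 31.8%) beside 13.55%. In the upper 50% of each list by fold, the directions moved apart. Of the Zbt-KD CSDS peaks, 91.8% were then found in GFP CSDS, and 58.8% the other way. As deposited, these were 73.9% and 73.6%. Here too the shares over all autosomal peaks in the upper 50% were not computed. The strongest absent GFP CSDS peaks were nearest Rgs18, at chr1:145529150-145534505 with a fold of 2.07, nearest Rgmb, a coreceptor of bone morphogenetic proteins, with 2.01, and nearest 2610316D01Rik, also with 2.01. The Rgs18 peak was thus found in both GFP lists of the knockdown experiment and in no other list. All sampled 31-base words of its locus (100%) had a further copy in the genome, as had those of the Kcnd2 locus. The strongest Zbt-KD CSDS peaks without a GFP CSDS peak were nearest Cntnap5a, Gm6634 and Agtr1b, with folds of 1.90, 1.88 and 1.85. The 4 comparisons of the knockdown experiment share lists, and their values are not independent of one another.

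The comparison of ZBT-OE SSDS with GFP SSDS asks about overexpression under brief stress. Of the 152 GFP SSDS peaks, 59 (38.8%, 31.4% to 46.7%) were absent from ZBT-OE SSDS, beside 27.7% of all autosomal peaks, and of the 96 ZBT-OE SSDS peaks only 11 (11.5%, 6.52% to 19.4%) were absent from GFP SSDS, beside 31.4%. In bases, 16.6% of the GFP SSDS gene desert bases were not covered in ZBT-OE SSDS and 9.25% the other way, while over the autosomes the order was reversed, at 9.96% and 13.2%. At the common scale the background of the first share lay within its interval (9.16% to 24.4%), with 13 of 85 peaks (15.3%) absent beside 12.6% of autosomal peaks. The second stayed below it, with 13 of 96 peaks (13.5%) beside 35.4%. Other intergenic peaks of the ZBT-OE SSDS list, which are closer in kind, were absent from GFP SSDS in 22.9%. In this list alone the gene desert peaks were wider than the autosomal peaks, with medians of 123836 and 73104 bp. A wide peak has more bases to overlap, and what part width has in the low share was not tested.

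The GFP SSDS peaks with the highest fold that ZBT-OE SSDS lacked were the Pcmtd1 block, with a fold of 3.201, a peak nearest Sema6d, at chr2:123496640-123523893 with a fold of 2.48, and a peak nearest 2610316D01Rik, at chr3:44242268-44264564, also with 2.48. The last was found in all 4 lists of the knockdown experiment. The ZBT-OE SSDS peaks with the highest fold that GFP SSDS lacked were nearest B3galt2, at chr1:143053288-143080567 with a fold of 2.75, and nearest B230303A05Rik and Cdk5rap2, each with 1.93. The B3galt2 peak was found in GFP control, Zbt-KD control and Zbt-KD CSDS. The other two were found in no further list. Cdk5rap2 encodes a centrosomal protein, and its peak of 30401 bp at chr4:69808432-69838832 lay 587 kb from the start site.

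**Figure D4:**
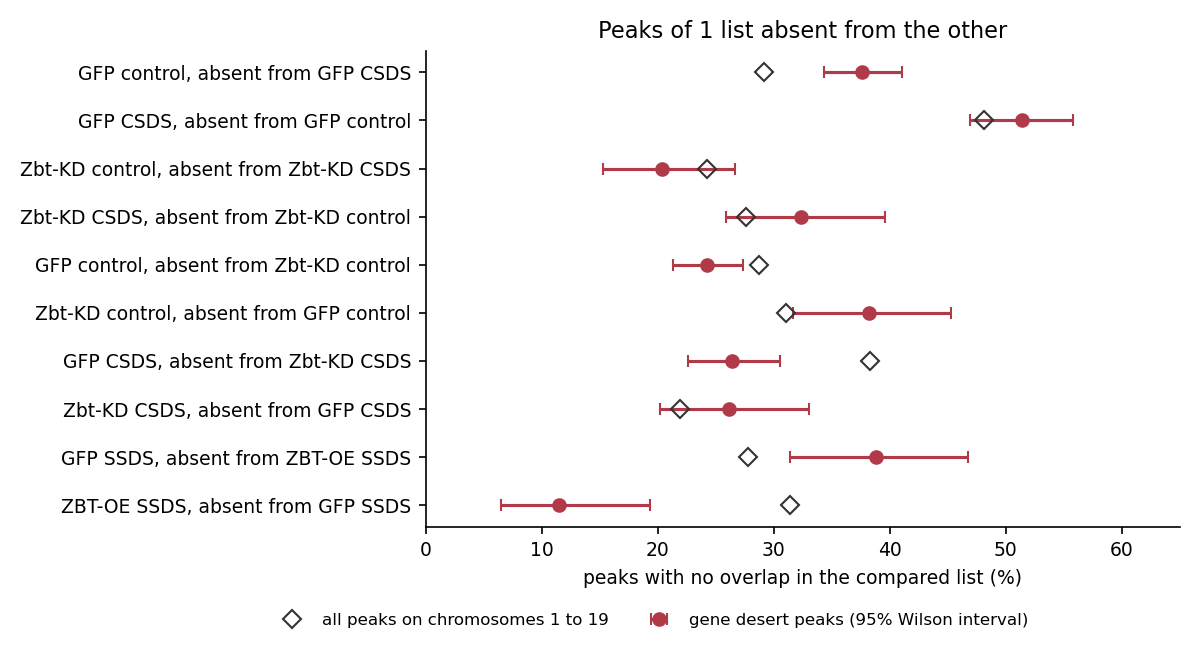
Percentage of the peaks of 1 list with no overlapping peak in the compared list, for gene desert peaks (circles, with 95% Wilson intervals over peaks) and for all peaks on chromosomes 1 to 19 of the same list (diamonds). The gene desert share lies farthest below its background for ZBT-OE SSDS peaks against GFP SSDS, 11.5% beside 31.4%, and above it for GFP SSDS peaks against ZBT-OE SSDS, 38.8% beside 27.7%.

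The gene desert peaks had 164 listed nearest genes, 111 of them protein-coding, 46 of noncoding RNA, 6 pseudogenes and 1 for a small nucleolar RNA. A list had between 78 (ZBT-OE SSDS) and 111 (GFP control) of them, and 51 were nearest to a gene desert peak in all 6 lists. The 10 genes with the most loci were nearest to 142 of the 444 loci. Pcmtd1, with 22 loci, was followed by Basp1 with 21, Gm20268 and B3galt2 with 19 each, Tle1 with 13, Tmtc2 with 11, Dcc and Ralyl with 10 each, 1700030C10Rik with 9 and G6pd2 with 8, a number that Caap1 and 2410018L13Rik also had. At distances over 500 kb, the nearest gene is a name for the place and not a target.

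Genes with many loci had mostly narrow ones. Tle1 encodes a Groucho corepressor and Tmtc2 a transmembrane protein of the endoplasmic reticulum. Their 13 and 11 loci came from GFP control peaks alone, summed to 77.0 and 50.3 kb, and were found in all 6 lists, in the other 5 as parts of peaks that did not meet the limits on distance, width or annotation. Ralyl, which encodes an RNA binding protein, had 10 loci of 29.9 kb in all, covered over 22.4 kb in GFP control and 9.97 kb in Zbt-KD control, and over 0 kb in the other 4 lists. Loci nearest Basp1, which encodes a membrane protein of growth cones, summed to 135 kb, and a list covered between 28.2 kb (ZBT-OE SSDS) and 62.3 kb (GFP control) of them. Those nearest G6pd2, a glucose-6-phosphate dehydrogenase, summed to 50.4 kb, covered over 43.01, 26.8 and 20.5 kb in GFP CSDS, Zbt-KD CSDS and GFP SSDS, against 0.923, 8.08 and 5.51 kb in GFP control, Zbt-KD control and ZBT-OE SSDS. Loci nearest B3galt2 summed to 291 kb, covered over 226, 213 and 269 kb in GFP CSDS, Zbt-KD CSDS and ZBT-OE SSDS, and over 49.1, 70.4 and 36.6 kb in GFP control, Zbt-KD control and GFP SSDS. By number the order differed, since GFP control had a peak in all 19 of these loci and GFP CSDS in 2, and most of the length lay in 1 locus found in all 6 lists.

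The nearest genes included genes of cell adhesion and axon guidance. By a list of symbol stems, which misses some genes of the kind among the nearest genes (Fat3, Dsc3, Rgmb, Lrfn5 and Mdga2), 19 genes were nearest to 367 of the gene desert peaks, 19.6%, beside 4.86% of all autosomal peaks. From GFP control to ZBT-OE SSDS the share was 21.7%, 22.0%, 18.3%, 11.9%, 14.5% and 14.6%, beside 6.15%, 4.63%, 4.15%, 3.89%, 3.90% and 2.50% of all autosomal peaks of the same lists. Long genes of this kind are known to border gene deserts, and the rule selected on distance, so the share describes where the peaks are and is no test. By loci, which do not count small peaks many times, they were nearest to 49 of 444 loci (11.0%) and 17.3% of the length, and 19 of the 49 (38.8%) were found in all 6 lists, beside 27.9% of all gene desert loci. The same share over loci of all autosomal peaks was not computed. Channels and receptors were nearest to 72 peaks (3.84%, beside 2.22% of autosomal peaks) and to 9 loci (2.03%). Transcription factors, by stems that miss Isl1, Hnf4g, Isx and Tfec, were nearest to 6 peaks (0.320%, beside 2.41%), and solute carriers and olfactory or vomeronasal receptors to 0, beside 1.24% and 5.62%.

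Cntnap5a, which encodes a cell adhesion protein of the neurexin superfamily, had the greatest summed length of loci among the nearest genes, 1353 kb in 6 loci. From GFP control to ZBT-OE SSDS in the order used above, peaks covered 259, 634, 649, 1282, 862 and 812 kb of them. In both pairs of the knockdown experiment the CSDS list covered more of it than the control list. The same held for all gene desert loci, with 18.1 against 14.8 Mb under the GFP virus and 21.1 against 20.1 Mb under Zbt-KD. The locus nearest Slitrk5, a synaptic adhesion protein, was covered over 123 and 148 kb in GFP control and GFP CSDS and over 274 to 289 kb in the other 4 lists. The locus nearest Epha6, an ephrin receptor, was covered over 173 kb in GFP control and 200 kb in Zbt-KD control and over 346 to 376 kb in the other 4. Loci nearest Tenm4, a teneurin, were covered over 224 to 255.7 kb of 282 kb in every list, and that nearest Pcdh9, a protocadherin, over 357 to 460 kb. The loci nearest Lrrc4c, a ligand of netrin-G1, were covered over 167, 133, 354, 436, 317 and 212 kb in that order. The locus of 440 kb nearest Kcnj3, a subunit of the G protein-gated potassium channel, was covered over 20.0, 241, 236, 355, 440 and 390 kb. GFP control covered less of all gene desert loci than any other list, 14.8 of 28.9 Mb against 18.1 to 23.5 Mb. What part that total has in its low values at Cntnap5a, Slitrk5, Epha6 and Kcnj3 was not tested.

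The sequence of gene desert peaks was poorer in G and C than that of other peaks and held fewer words with a second copy in the genome. GC content over all bases was 38.4%, 38.2%, 37.8%, 38.0%, 37.9% and 37.8% from GFP control to ZBT-OE SSDS, beside 39.8% to 40.1% in other intergenic peaks, 39.8% to 40.5% in all autosomal peaks and 41.9% over chromosomes 1 to 19. The RefSeq gene desert as a whole has 37.4%, so the peaks were slightly richer than their surroundings. Within that space, bases in no list had 37.4% GC, bases in 1 to 5 lists 37.7% and bases in all 6 lists 38.0%, and the soft-masked share rose from 41.1% through 46.3% to 47.6%. Soft-masked bases made up 47.6%, 46.7%, 47.2%, 47.6%, 46.4% and 46.5% of gene desert peaks, beside 47.3%, 46.3%, 46.6%, 46.6%, 44.9% and 44.2% of all autosomal peaks and 48.4%, 47.8%, 47.7%, 47.4%, 46.2% and 45.9% of other intergenic peaks. The gene desert peaks were thus below the other intergenic peaks in the first 3 lists and above them in the last 3. Per peak, the median ran from 45.4% to 48.2%, above the median of other intergenic peaks in every list, which ran from 42.0% to 44.8%. CpG dinucleotides were at 0.150 to 0.154 of the number expected from the base content in gene desert peaks. The ratio was 0.143 over the RefSeq gene desert, 0.161 to 0.170 in other intergenic peaks and 0.194 over the autosomes.

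Repeats were gauged by drawing 3000 words of 31 bases from each set and counting those with a further copy in the genome. The share was 27.2% in GFP control (95% Wilson interval 25.6% to 28.8%), 25.6% in GFP CSDS, 23.9% in Zbt-KD control, 25.8% in Zbt-KD CSDS, 24.6% in GFP SSDS and 24.2% in ZBT-OE SSDS. Other intergenic peaks had 40.1% to 45.8% and all autosomal peaks 36.6% to 41.5%, against 16.6% (15.3% to 17.97%) over chromosomes 1 to 19 and 20.0% (18.6% to 21.5%) over the RefSeq gene desert. In every list the gene desert peaks thus held fewer repeated words than the other peaks and more than the desert around them. The authors kept uniquely mapped reads, and what part repeats play in these peaks was not tested. Among the 8 named loci the share ran from 15.5% to 30.5%, beside a median of 24.5% for the 124 loci found in all 6 lists, so the highest ranked blocks were not the most repeated ones. Over the loci of the named absent peaks it ran from 8.0% at a B3galt2 locus to 98.5% at a Rag2 locus and 100% at Rgs18. Another B3galt2 locus had 24.5% and another Rag2 locus 19.0%. It was 62.0% at Sema6d, 66.5% at Gm6634 and 56.0% at B230303A05Rik.

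**Figure D5:**
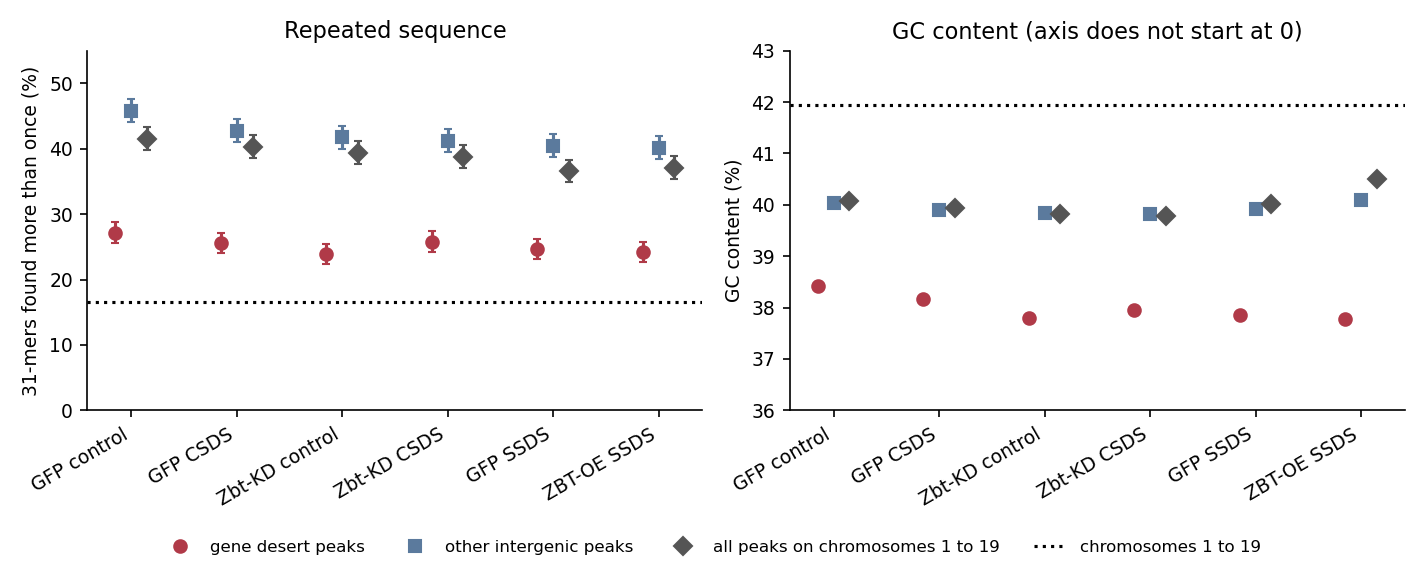
Share of 3000 sampled 31-base words found more than once in the genome (left, with 95% Wilson intervals) and GC content over all bases (right), per list, for gene desert peaks, other intergenic peaks and all autosomal peaks, with chromosomes 1 to 19 as a dotted line. Gene desert peaks lie between 23.9% and 27.2% repeated words, below the other peaks and above the genome, and at the lowest GC content.

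Letters of the ZBTB7A recognition sequence were rarer per kb in gene desert peaks than in other peaks, and slightly more frequent than in the RefSeq gene desert as a whole. GACCC on either strand occurred 0.933 to 0.991 times per kb in the 6 lists. It occurred 0.895 times per kb over the RefSeq gene desert, 1.10 to 1.13 in other intergenic peaks and 1.25 over the autosomes, an order that follows GC content. In the central 300 bases, 20.4% (Zbt-KD control) to 30.5% (GFP control) of gene desert peaks held the letters, beside 25.1% to 31.4% of all autosomal peaks and 29.5% of all sequenced windows of 300 bases on chromosomes 1 to 19. The share was 21.1% in GFP SSDS and 22.9% in ZBT-OE SSDS. A match of these letters describes the sequence and is not a bound site.

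The peaks did not lie at the ends of the assembly. Of the gene desert peaks, 0 were within 10 kb of an assembly gap of 100 bases or more, against 0.857% to 3.10% of other intergenic peaks. Their median distance to a gap was 7999.99 to 10869.6 kb and to the nearer chromosome end 43.1 to 43.7 Mb, and the closest lay 4.01 Mb from an end.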

How the data were processed

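ATAC-seq was done on pooled OFC astrocytes, and 1 annotated peak list per group was used. Per the study's methods, the authors aligned reads with HISAT2 to mm10, kept uniquely mapped reads without duplicates and called peaks with MACS at a set FDR. How samples were merged into a list is not given in the sources used here. The fold enrichment, a ratio of signal to background, and the q-value of each peak are used as the authors deposited them, and fold was compared within a list only. The distance to the TSS and the nearest gene were also given by the authors.

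The members, the gene lists and the comparisons were chosen with earlier results of these data known. Peaks were selected on annotation, distance and width. Overlap meant at least 1 shared bp. No test was run, because each group has 1 list, and 95% Wilson intervals cover counting error over peaks only. Sequences, gaps and gene starts came from GRCm38, which has the coordinates of mm10, with GENCODE and RefSeq annotation, and 0 autosomal peaks ended beyond a chromosome. Named shared loci were the 8 with the highest mean rank of fold, and named absent peaks were the 3 with the highest fold in each direction. Python 3.11.15, pandas 2.3.3, numpy 2.4.6 and scipy 1.17.1 were used, and the steps were tested on simulated data. Alternatives were a distance of over 1000 kb, the upper 50% of each list by fold, an overlap of 50%, a common scale and other sets of gene starts.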

Additional observations from a re-analysis of the deposited data

How the results depend on the processing

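Of 110 values recomputed under another choice, 38 stayed within the interval or limit set for them and 72 moved. An overlap of 50% moved none of them. The order of lists by peak number changed at the common scale, and depth is not known from these files. Leaving out replicates could not be done with the files used here, which hold 1 list per group. No paired analysis was possible because the lists used here hold no value per sample.

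Values are given in the order GFP control, GFP CSDS, Zbt-KD control, Zbt-KD CSDS, GFP SSDS, ZBT-OE SSDS. Beyond 1000 kb, gene desert peaks numbered 201, 105, 57, 57, 53 and 28, or 3.71%, 3.08%, 4.38%, 4.81%, 4.13% and 2.34% of autosomal peaks, with 23 of 85 loci in all 6 lists. The share found was 54.3% for GFP CSDS in GFP control, 75.4% for Zbt-KD CSDS in Zbt-KD control, 81.1% for GFP control in Zbt-KD control, 81.9% for GFP CSDS in Zbt-KD CSDS, 73.6% for GFP SSDS in ZBT-OE SSDS and 96.4% for the reverse.

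In the upper 50% by fold there were 416, 245, 71, 73, 63 and 47 peaks, with 72 of 290 loci in all 6 lists. The share of autosomal peaks was 11.0% in Zbt-KD control, 12.7% in Zbt-KD CSDS and 10.0% in GFP SSDS. The share found was 66.1% for GFP control in GFP CSDS and 56.3% for the reverse, 76.7% for Zbt-KD CSDS in Zbt-KD control, 61.5% for GFP control in Zbt-KD control and 84.5% for the reverse, 58.8% for GFP CSDS in Zbt-KD CSDS and 91.8% for the reverse, and 93.6% for ZBT-OE SSDS in GFP SSDS.

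At the common scale the first 5 lists held 58, 81, 80, 79 and 85 peaks, or 9.39%, 11.6%, 11.7%, 11.9% and 10.0%, with 60 of 136 loci in all 6 lists. The share found was 79.3% for GFP control in GFP CSDS and 65.4% for the reverse, 78.5% for Zbt-KD CSDS in Zbt-KD control, 89.7% for GFP control in Zbt-KD control, 85.2% for GFP CSDS in Zbt-KD CSDS and 84.7% for GFP SSDS in ZBT-OE SSDS.

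The gene desert covered was 0.0 Mb in every list beyond 1000 kb of any TSS. It was 23.6, 29.9, 31.4, 33.4, 37.3 and 35.2 Mb for coding TSS, and 13.6, 16.8, 18.7, 19.6, 21.9 and 20.1 Mb for curated RefSeq TSS, a choice made after seeing the data. Of the space by any TSS, 97.1% is unsequenced. For the other changes the cause was not tested, apart from peaks removed or joined by the choice itself.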
